A study of Mus musculus with 32 samples.

Results

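The baseline transcriptome of the striatum was described in the 8 mice labelled B6 (strain C57BL/6J), which made up 8 of the 16 mice of the series. They were naïve littermates of the congenic Line 4a mice, which carry a chromosome 11 interval from the DBA/2J strain on the B6 background. No genotype was tested here, and Line 4a mice serve only as a second set of 8 mice in which the same spread could be measured. Of 23420 genes listed in the count tables, 14187 had a mean CPM (a gene's count scaled to a common library total, as counts per 1000000 reads on genes) of 1 or more in B6 mice and were kept. Just inside that limit lay *Gm5820* and *4921515E04Rik*, at 1.003 CPM each, and just outside it *Hpn* and *Lrriq1*, at 0.9997 and 0.999 CPM. The order of abundance of the genes kept and their spread from mouse to mouse follow.

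Tissue punches of 3 mm, per the labels, were taken from the striatum of both hemispheres of each mouse at about 50 days of age, and both punches were pooled. RNA was captured with oligo-dT and sequenced as single-end reads. Mice 1 to 4 were run on lanes 5 and 6 and mice 5 to 8 on lanes 7 and 8. For mouse 7, 1 lane file was analysed here. Neither sex nor home cage is given in the labels, and nothing in the counts checks the strain itself. The study's methods differ from the labels in punch size, age range and RNA kit, so these details are uncertain.

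The striatum is the input nucleus of the basal ganglia. Most of its neurons are GABAergic spiny projection neurons, which fall into a direct pathway that expresses the dopamine D1 receptor and an indirect pathway that expresses the D2 receptor. Both receive glutamatergic input from the cortex and dopamine from the midbrain, and the tissue also holds cholinergic and GABAergic interneurons, glia and vessels. Because a punch is a mixture of cells, fewer cells of a type and less RNA per cell cannot be told apart in any value below.

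The depth on genes ran from 19032826 reads in mouse 7 to 33748353 reads in mouse 1, with a median of 30222554. In the 7 mice with 2 lane files, the files differed at most slightly more than sampling noise alone would give (chi-square over degrees of freedom, 0.997 to 1.05). Between mice, the same statistic averaged 20.1 over genes, with a median of 5.02. Each library came from 1 mouse, so the animal, the dissection and the library preparation cannot be told apart in the spread between mice.

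Mouse 8 stood apart from the other B6 mice. Reads outside annotated genes made up 11.3% of its reads against 14.8% to 15.9% in the others. Its median Pearson r with the other mice was 0.987 over log2 CPM of the genes kept, against 0.992 to 0.995 for the others. On the first principal component, which held 41.4% of the variance, its loading was 0.82, and the other loadings lay between -0.30 and 0.27. Spreads that rest mostly on this library are therefore given with and without it. What it contributed beyond those values was not tested.

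Reads were spread over many genes. In each mouse, 1142 ± 33.0 genes (SD, n = 8) took 50% of the reads, and 6235 ± 99.5 genes took 90%. The 10 most abundant genes held 3.91% ± 0.14 of the reads, the 100 most abundant 15.6% ± 0.30 and the 1000 most abundant 47.3% ± 0.61. The order at the top was shared, since 83 genes were among the 100 most abundant of every mouse and 6 were among the 10 most abundant of every mouse.

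**Figure D1:**
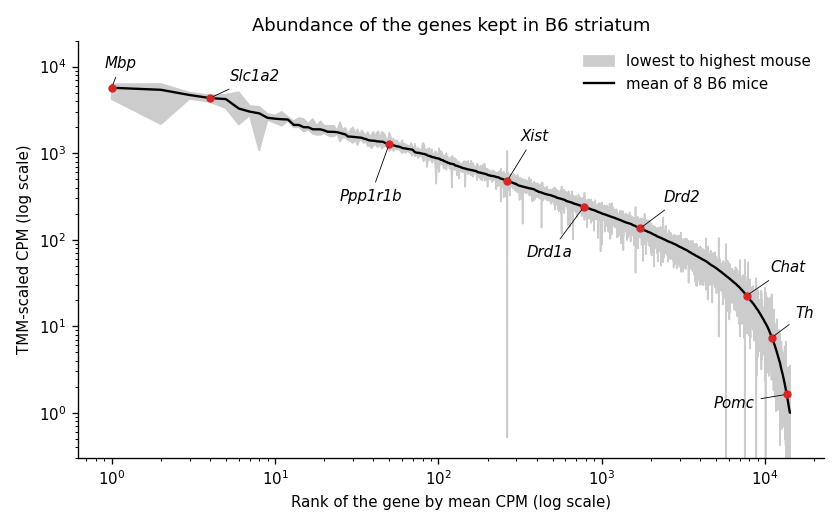
Mean TMM-scaled CPM of the 14187 genes kept (y, log scale) against their rank (x, log scale), with the range from the lowest to the highest of the 8 B6 mice in grey. Values under 0.3 CPM are not drawn, and the grey range is narrow around most of the line but drops deeply at *Xist* and a few other genes.

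Myelin, neuronal and astrocyte transcripts led the list. *Mbp*, which encodes myelin basic protein, had the highest share of reads, from 4207 CPM in mouse 2 to 6267 CPM in mouse 8 with a median of 5853 CPM. The long noncoding RNA *Meg3* followed at a mean of 5400 ± 1356 CPM, and the kinesin heavy chain gene *Kif5a* at 4700 ± 235 CPM. *Slc1a2*, the main glutamate transporter of astrocytes, stood at 4335 ± 303 CPM. In mouse 8 *Meg3* fell below the other 3 genes, and its CV was 25.1% with that mouse and 6.53% without it.

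Genes of several kinds came after these. *Rn45s*, the ribosomal RNA precursor, averaged 3280 ± 979 CPM although the libraries were selected for polyadenylated RNA, and it ranged from 2141 CPM in mouse 4 to 5071 CPM in mouse 2. Its repeated copies make the count uncertain. The noncoding host gene *Snhg11* (2886 ± 754 CPM), *Ndrg4* (2562 ± 134 CPM) and the lipid desaturase gene *Scd2* (2502 ± 163 CPM) were also among the 15 with the highest CPM. They were followed by *Camk2n1* and *Camk2a*, an inhibitor and the alpha subunit of calcium/calmodulin-dependent kinase II, at 2466 ± 291 and 2448 ± 88.6 CPM. The peptide-processing enzyme gene *Cpe*, the elongation factor gene *Eef1a1* and the complexin gene *Cplx2* closed the 15 at 2124 ± 108, 2114 ± 182 and 1995 ± 212 CPM. Several of these spreads were smaller without mouse 8. The CV of *Snhg11* went from 26.1% to 6.30%, that of *Ndrg4* from 5.24% to 2.69%, that of *Cpe* from 5.08% to 3.25% and that of *Cplx2* from 10.6% to 4.27%. Neighbours in this group differed by less than 1 SD in several cases, as *Camk2n1* and *Camk2a* did.

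Dividing by exon length moved short transcripts to the top. Exon lengths were found for 13272 of the genes kept, from an annotation of another build, and 915 genes had none. On the scale of CPM per kb of exon, *2900097C17Rik* led at 5875 CPM per kb, but this rested on an annotated length of 0.34 kb. *C230091D08Rik* reached 849 CPM per kb on 0.054 kb. Among genes with longer models, the ferritin heavy chain gene *Fth1* had 2175 CPM per kb, the brain creatine kinase gene *Ckb* 1137, the calmodulin gene *Calm2* 1059 and *Cpe* 1018 CPM per kb. *Pcp4*, which binds calmodulin, followed at 916 CPM per kb and the protease inhibitor gene *Cst3* at 871. *Rplp1*, *Eef1a1*, *Nrgn*, *Sepw1*, *Penk* and *Kif5a* lay between 700 and 860 CPM per kb. *Penk*, the enkephalin precursor of indirect pathway neurons, was thus 14th of the genes with a length, while *Mbp* fell to 16th at 679 CPM per kb. The median over all genes with a length was 7.42 CPM per kb.

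The spread between mice was small for most genes. It was measured as the coefficient of variation (CV), the SD over the 8 mice as a percentage of the mean. The median CV over the 14187 genes was 8.68%, with a jackknife standard error of 1.33 over mice, and the 10th and 90th percentiles were 4.54% and 19.8%. Under 10% lay 8427 genes, or 59.4%, and under 5% lay 1964 genes. A CV over 25% was found for 666 genes (4.69%) and over 50% for 50 genes. Leaving out mouse 8 lowered the median CV over the same genes to 7.28% and the number over 25% to 414.

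Counting alone would have given a median CV of 3.64%, and the CV beyond counting, from the difference of the squares, had a median of 7.24%. For 876 genes the CV did not exceed the counting value. edgeR's common biological coefficient of variation, which removes counting error in a model, was 10.6% with a jackknife standard error of 2.11, and 8.54% without mouse 8. In Line 4a mice it was 14.9%. The median CV of the genes kept was 11.4% in Line 4a, and 5.99% without Line 4a mouse 1, where reads with more than 1 alignment made up 27.3%. The difference between the genotypes in spread was not tested.

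The spread depended on the level of the gene. Genes of 1 to 3 CPM had a median CV of 19.6%, of which counting accounted for a CV of 14.2%. From 3 to 10 CPM the median was 12.6%, and from 10 to 30 CPM it was 8.40%. It was lowest from 100 to 300 CPM, at 6.75%, where counting gave only 1.53%. The 77 genes of 1000 CPM or more had a median CV of 8.33%, 0.51% from counting, so the libraries were deep enough that almost all of the spread at that level lay between mice. Without mouse 8 these 77 genes had a median CV of 6.44%.

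**Figure D2:**
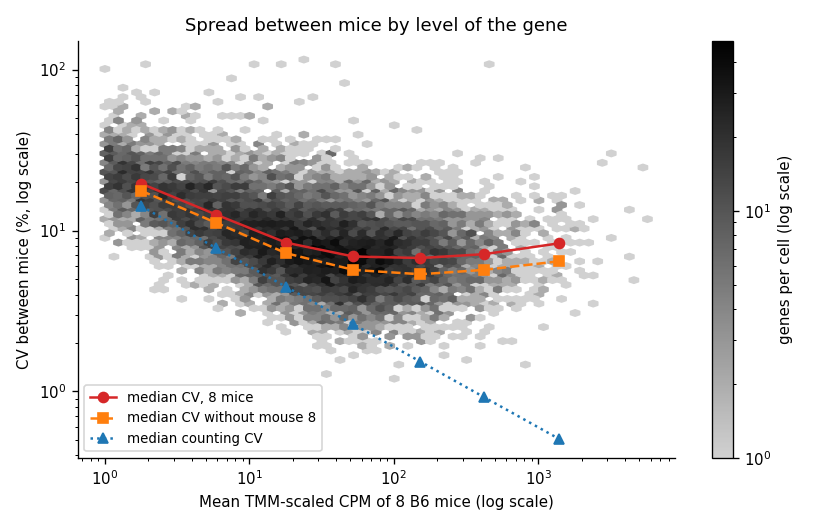
CV between the 8 B6 mice in percent (y, log scale) against mean TMM-scaled CPM (x, log scale), with darker cells holding more genes. The median CV of 7 level classes falls from 19.6% at 1 to 3 CPM to 6.75% at 100 to 300 CPM, while the median counting CV falls to 0.51% at the highest level and the medians without mouse 8 lie below those of all 8 mice.

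The labelled tissue was checked against its defining markers. All 12 markers shared by spiny projection neurons were kept, with means from 113 to 1543 CPM and a median of 153 CPM per kb. *Ppp1r1b*, which encodes the dopamine-regulated phosphatase inhibitor DARPP-32, was 50th by CPM, from 1053 in mouse 1 through a median of 1224 to 1730 CPM in mouse 8. The phosphodiesterase gene *Pde10a* ran from 1237 to 1890 CPM, with a median of 1493. *Rgs9*, which speeds the shutdown of G-protein signalling, was the steadiest of the 12, at 705 to 953 CPM (CV 10.2%) and highest in mouse 7. *Ppp1r1b* and *Pde10a* were highest in mouse 8, and mice 3 and 7 held the next 2 places for both.

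All 6 direct pathway and all 6 indirect pathway markers were kept. *Drd1a*, the D1 receptor gene, had 208 to 304 CPM with a median of 222, or 67.7 CPM per kb on average. *Drd2*, the D2 receptor gene, had 111 to 173 CPM with a median of 134, or 53.1 CPM per kb. The peptide precursor genes of the pathways were *Tac1* (substance P) at 137 to 214 CPM, *Pdyn* (dynorphin) at 16.0 to 26.6 CPM and *Penk* at 997 to 1410 CPM. The adenosine receptor gene *Adora2a* of the indirect pathway had 282 to 454 CPM. In each of these 6 genes the highest mouse was mouse 8, which was also the highest mouse in 3673 of the 14187 genes kept.

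These markers varied more between mice than most genes. The median CV was 14.3% for the 12 shared markers, 15.3% for the direct pathway and 16.1% for the indirect pathway, against 8.68% over all genes. All 12 shared markers, 5 of 6 direct and 6 of 6 indirect pathway markers had a CV above the median of all genes. Without mouse 8 the medians were 10.7%, 11.9% and 11.8%, beside 7.28% over all genes. *Gpr6*, an orphan receptor of the indirect pathway, was the most variable, with a CV of 21.4% (10.3% without mouse 8), and the transcription factor gene *Isl1* the least, with 7.60%. In Line 4a mice the medians were 8.00%, 11.4% and 10.6%, beside 11.4% over all genes.

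The summed level of the 12 shared markers was 9456, 9186, 11658, 10504, 9239, 10578, 11772 and 13373 CPM in mice 1 to 8. Mice 3, 7 and 8 were thus the 3 highest and mice 1, 2 and 5 the 3 lowest. The direct pathway markers summed to between 511 CPM in mouse 5 and 725 CPM in mouse 8, and the indirect pathway markers to between 1476 CPM in mouse 5 and 2144 CPM in mouse 8. The same 3 mice were highest in all 3 sums.

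Interneuron markers had a median level of 35.4 CPM per kb, against 153 CPM per kb for the shared projection neuron markers. All 7 were kept, at 10.04 to 166 CPM on average, and their median CV was 9.69%. *Chat*, which makes acetylcholine, had 18.7 to 25.9 CPM with a median of 22.2, and the choline transporter gene *Slc5a7* had 38.7 to 50.4 CPM with a median of 44.0. *Slc18a3*, which loads acetylcholine into vesicles, had 8.31 to 12.2 CPM, and *Nos1*, the neuronal nitric oxide synthase gene, was the steadiest of the list at 22.3 to 29.1 CPM (CV 8.98%). *Pvalb*, a calcium-binding protein of fast-spiking interneurons, stood apart with a CV of 34.2%. It lay at 31.6 CPM in mouse 3 and 32.3 CPM in mouse 8, at 57.4 CPM in mouse 1, and between 71.4 and 89.2 CPM in the other 5 mice.

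Markers of cortical glutamatergic neurons were present and variable. All 10 were kept, with means of 3.01 to 414 CPM and a median CV of 18.4% (19.7% without mouse 8). *Slc17a7*, the cortical vesicular glutamate transporter, had 293 CPM in mouse 7, 307 CPM in mouse 4, 366 CPM in mouse 6 and 439 to 504 CPM in the other 5 mice. *Tbr1*, a transcription factor of cortical projection neurons, was also lowest in mice 4 and 7, at 33.6 and 35.2 CPM, and reached 55.4 CPM in mouse 3. *Neurod6*, a transcription factor of the same cells, had 16.6 to 26.7 CPM and was also lowest in mouse 7. The vesicular zinc transporter gene *Slc30a3* had the largest CV of the list, 33.4%, from 14.3 CPM in mouse 7 to 38.6 CPM in mouse 5, whereas *Rorb* varied by only 4.92%. The list summed to 455 CPM in mouse 7 and 748 CPM in mouse 2, and in Line 4a its median CV was 29.5%. The part that cortical tissue had in the spread of other genes was not tested.

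Markers of neighbouring ventral forebrain and of the midbrain were mostly low. Of 10 hypothalamic and ventral forebrain markers, 4 were kept, and the neuropeptide genes *Avp*, *Oxt*, *Hcrt*, *Pmch*, *Agrp* and *Gal* averaged 0.042 to 0.75 CPM. *Pomc*, the precursor of melanocortins, was barely kept at 1.25 to 2.01 CPM, *Trh* had 3.72 to 8.19 CPM and the ventral transcription factor gene *Nkx2-1* 5.58 to 10.1 CPM. *Slc17a6*, the vesicular glutamate transporter of subcortical neurons, was variable, with 25.7 CPM in mouse 1, 14.3 to 18.6 CPM in mice 2, 4, 5 and 6, and 4.35 to 5.98 CPM in mice 3, 7 and 8. The 3 mice with the least *Slc17a6* were the 3 with the highest sums of projection neuron markers. Of 6 markers of midbrain dopamine neurons, the dopamine transporter gene *Slc6a3* (0.21 CPM) and *En1* (0.049 CPM) fell below 1 CPM, while *Th*, the rate-limiting enzyme of dopamine synthesis, had 6.22 to 8.70 CPM. The vesicular monoamine transporter gene *Slc18a2* had 6.90 to 8.85 CPM, the dopamine-forming enzyme gene *Ddc* 8.72 to 12.6 CPM and *Aldh1a1* 53.8 to 75.4 CPM.

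Glial markers differed in spread. The 10 astrocyte markers had a median CV of 7.23% over the 8 mice, under the 8.68% of all genes, and 3 of the 10 lay above that value. Without mouse 8 the order was reversed, at 7.52% beside 7.28% over all genes. In Line 4a mice the astrocyte median was 12.2% beside 11.4%, and without Line 4a mouse 1 it was 6.84% beside 5.99%. *Aldoc*, a glycolytic enzyme gene, had 767 to 888 CPM (CV 5.01%). *Slc1a3*, a glutamate transporter, ran only from 670 to 732 CPM (CV 3.26%), and *Gfap*, an intermediate filament gene, from 85.9 to 142 CPM (CV 16.8%). The 10 microglial markers had a median CV of 9.31%, from *Cx3cr1* at 85.5 to 102 CPM (CV 5.27%) to *Tmem119* at 27.9 to 38.4 CPM (CV 12.98%). *Csf1r*, the receptor that microglia need to survive, had 148 to 199 CPM, and the purinergic receptor gene *P2ry12* had 64.5 to 77.0 CPM.

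The 10 oligodendrocyte markers had a median CV of 11.03%, and all 10 lay above the median of all genes. Mouse 2 had the lowest sum, 10208 CPM, and the other 7 mice lay between 12936 and 14640 CPM. *Mobp* had 555 CPM in mouse 2 and 704 to 768 CPM elsewhere, and *Mag*, a myelin-associated glycoprotein, 323 CPM in mouse 2, 370 CPM in mouse 8 and 429 to 574 CPM elsewhere. Without mouse 2 the median CV of the list was 5.43%. *Ermn*, the least variable member at 9.07%, had 125 CPM in mouse 8 and 171 CPM in mouse 7. *Mbp* was lowest in mouse 2 and highest in mouse 8, whereas *Mag* was low in both, so these myelin genes did not share 1 order of mice.

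In B6 mice vascular markers had a wider spread than glial ones. The 9 endothelial and mural markers had a median CV of 18.1%, and all 9 lay above the median of all genes. In Line 4a mice their median CV was 14.5%, beside 13.2% for oligodendrocyte markers. Without Line 4a mouse 1 these medians were 8.88% and 10.9%, so the order was reversed. The astrocyte and microglial medians stayed below the vascular one in Line 4a, with and without that mouse. *Cldn5*, a tight junction gene, had 29.9 CPM in mouse 5, a median of 39.2 and 54.3 CPM in mouse 6. *Pecam1*, an endothelial adhesion gene, had 21.8 to 33.1 CPM. *Acta2*, a smooth muscle actin, had the largest CV, 27.9%, from 6.51 to 13.1 CPM, and *Rgs5*, a pericyte marker, the smallest, 12.7%. Of the 7 red blood cell genes listed, only *Alas2* was kept, at 1.82 ± 0.47 CPM. *Hba-a1*, *Hba-a2*, *Hbb-b1* and *Hbb-b2* had no read in any of the 8 mice, which allows up to 0.013 CPM at 3 reads over all of them. Reads with more than 1 alignment were not counted, and these genes have near-identical copies, so a level near 0 here says little about blood.

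**Figure D3:**
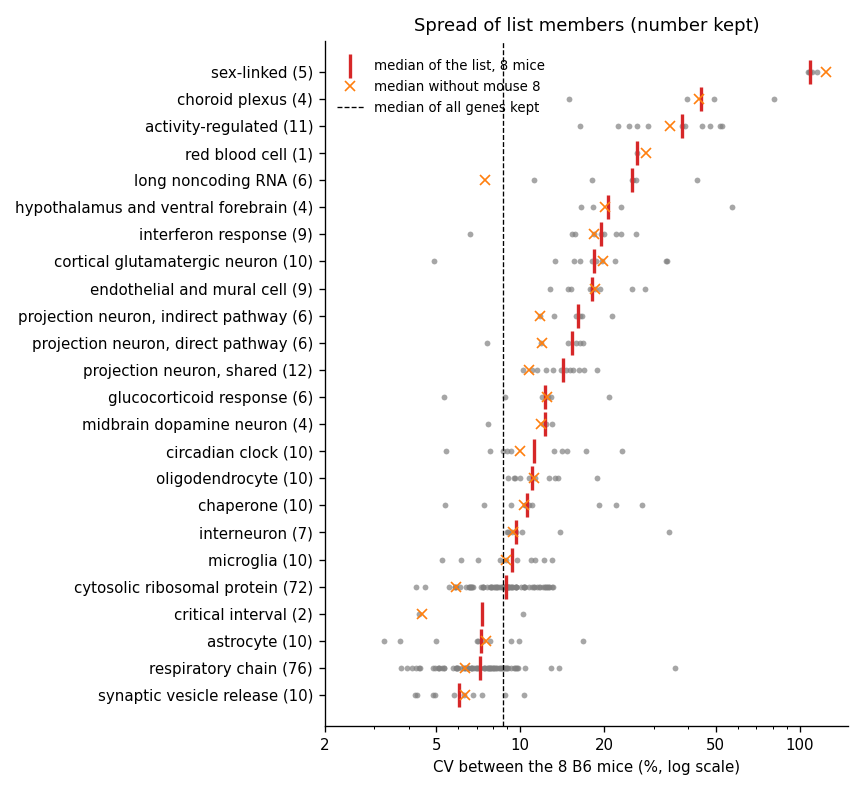
CV between the 8 B6 mice in percent (x, log scale) of each kept member of 24 gene lists (grey points), with the list median for 8 mice (red bar) and without mouse 8 (orange cross). The dashed line is the 8.68% median of all genes, and the list medians run from 6.06% for synaptic vesicle release to 109% for sex-linked genes.

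Activity-regulated genes, which neurons transcribe within minutes of firing, were all kept and all variable. The 11 had a median CV of 38.0%, and each lay above the median of all genes. *Fos* had 4.23, 11.1, 6.03, 3.93, 15.6, 5.47, 12.1 and 7.00 CPM in mice 1 to 8. *Arc*, whose product acts at synapses, had 54.6, 109, 62.7, 60.1, 151, 84.5, 181 and 112 CPM. *Junb* had 17.9, 35.2, 20.5, 17.6, 36.3, 21.7, 43.2 and 43.3 CPM. Mice 2, 5 and 7 were high and mice 1 and 4 low in all 3 genes, while mouse 8 was high in *Junb* and near the middle in *Fos*.

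*Egr2* had the largest CV of the list, 52.9%, from 2.67 CPM in mouse 1 to 13.6 CPM in mouse 7, and *Ier2* the smallest, 16.3%. The summed level of the list was 284 CPM in mouse 1, with a median of 445 CPM, and 715 CPM in mouse 7. Without mouse 8 the median CV of the list was 34.4%. In Line 4a mice the median CV was 22.0%, and *Fos* had a CV of 51.8% there, close to its 52.0% in B6 mice.

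Choroid plexus markers also varied widely. Of 8 listed, 4 were kept, with a median CV of 44.4%. *Ttr*, the transthyretin gene and the most abundant transcript of that tissue, had 22.2, 14, 7.58, 34.7, 105, 63.9, 86.4 and 22.4 CPM in mice 1 to 8. The highest was 13.8-fold above the lowest. *Kl* followed with 2.53 to 8.02 CPM, highest in mice 5 and 7. *Clic6*, the steadiest member, had 10.8 to 17.9 CPM (CV 14.98%), and *Folr1*, *Aqp1*, *Kcnj13* and *Otx2* averaged 0.51 to 0.76 CPM and were not kept. Mice 5, 6 and 7 had the highest sums of the list, between 87.1 and 133 CPM, and mouse 3 the lowest, 22.4 CPM.

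Other regulated lists moved less. The 9 interferon response genes had a median CV of 19.4%. Most of them were low, with means under 4 CPM, where counting error is large. The median of all genes was 19.6% at 1 to 3 CPM and 12.6% at 3 to 10 CPM. *Oasl2*, the most variable, had 2.18 to 4.32 CPM, *Ifit1* 1.58 to 2.81 CPM and *Isg15*, a ubiquitin-like modifier, 2.07 to 3.36 CPM. *Ifit3* had 5.32 CPM in mouse 4 and 3.14 to 4.15 CPM in the others. In Line 4a the same list had a median CV of 67.9%, and 15.6% without Line 4a mouse 1. The 10 clock genes had a median CV of 11.2%, from *Nr1d2*, a clock repressor, at 5.41% to *Per1* at 23.2%, with *Per1* at 78.9 CPM in mouse 3 and 145 CPM in mouse 7 (CV 15.3% without mouse 7). The related repressor genes *Per2* and *Per3* had 33.8 to 48.6 and 50.4 to 82.5 CPM. The 6 glucocorticoid response genes had a median of 12.3%, with *Tsc22d3* at 5.33% (2.54% without mouse 5) and *Zbtb16* at 20.8%. *Sgk1*, a kinase gene, had 67.3 to 94.1 CPM, highest in mouse 5. *Fkbp5*, a chaperone of the glucocorticoid receptor, lay at 40.7 to 44.8 CPM in 7 mice and 52.7 CPM in mouse 8, and its CV was 8.86% with and 3.61% without that mouse. The 10 chaperone genes had a median CV of 10.6%, of which *Hspa1a* and *Hspa1b*, the heat-inducible members, stood at only 1.37 ± 0.37 and 1.01 ± 0.22 CPM. Those of the endoplasmic reticulum (*Hspa5*, 217 ± 22.6 CPM) and cytosol (*Hsp90ab1*, 1259 ± 67.9 CPM, CV 5.39%) were higher also per length, at 61.8 and 419.7 CPM per kb against 0.47 and 0.36 CPM per kb. Reads that align to both *Hspa1a* and *Hspa1b* were not counted. The levels of these 2 genes, and their contrast with *Hspa5* and *Hsp90ab1*, are therefore uncertain.

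Synaptic vesicle and respiratory chain genes had list medians below that of all genes in B6 mice, and ribosomal protein genes one close to it. The 10 genes of synaptic vesicle release had the lowest list median over the 8 mice, 6.06%, and 2 of them lay above the median of all genes. Without mouse 8 their median was 6.34% and no longer the lowest. The ribosomal protein list then had 5.90%, and the list of *Hnrnph1* and *Rufy1* 4.46%. *Vamp2*, a vesicle fusion protein, had 886 to 1026 CPM and *Rab3a*, a vesicle GTPase, 331 to 377 CPM (CV 4.20%), whereas *Snap25* was the most variable at 10.3%. *Syt1*, the calcium sensor of release, had 1005 to 1206 CPM. Of 81 respiratory chain genes 76 were kept, with a median CV of 7.17%, among them *Atp5b* of the ATP synthase at 1126 ± 59.0 CPM and *Sdha* of complex II at 410 ± 16.8 CPM. *Uqcrc1* of complex III was the steadiest, at 177 to 196 CPM (CV 3.74%), and *Cox6b2*, a form of complex IV known from testis, the most variable, at 0.67 to 1.81 CPM (CV 35.7%). In Line 4a mice the respiratory list had a median CV of 23.95% (3.67% without Line 4a mouse 1) and the vesicle list 10.8% (4.54%), beside 11.4% (5.99%) over all genes.

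Of 76 cytosolic ribosomal protein genes 72 were kept, with means of 67.4 to 479 CPM and a median CV of 8.89%, and 39 of the 72 lay above the median of all genes. Without mouse 8 the median fell to 5.90%. In Line 4a it was 20.3%, and 3.86% without Line 4a mouse 1. The 72 genes summed to 16136 CPM in mouse 8 and to between 12302 and 14618 CPM in the others. *Rpl3* had 600 CPM in mouse 8 and 439 to 491 CPM in the other 7. *Rpsa* had 572 and 417 to 482 CPM, and *Rps7*, the most variable member, 260.1 and 177 to 215 CPM, again with mouse 8 above the rest. In contrast, *Rps15a*, the least variable member, had 104 to 117 CPM. *Rpl26* had no read in the 8 mice, which allows up to 0.013 CPM at 3 reads. Ribosomal protein genes have many processed copies, and reads with more than 1 alignment were left out, so this count is uncertain.

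The 15 genes with the largest CV beyond counting were picked by that value, so the following is a description. *Eif2s3y*, *Ddx3y*, *Kdm5d* and *Uty*, all on the Y chromosome, and *Xist*, the noncoding RNA that silences an X chromosome, were 5 of them. *Xist* (GRCm38.p6 chrX:103460373-103483233) had 908 to 1056 CPM in mice 2, 4, 5 and 6 and 0.52 to 1.26 CPM in mice 1, 3, 7 and 8. The Y-linked genes had the opposite pattern. *Ddx3y*, an RNA helicase gene, had 82.1, 89.1, 84.2 and 49.5 CPM in mice 1, 3, 7 and 8, and at most 0.75 CPM in the others. *Eif2s3y* had 54.6 to 58.8 CPM in mice 1, 3 and 7, 22.8 CPM in mouse 8 and at most 0.39 CPM in the others.

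*Kdm5d*, a histone demethylase gene, had 33.2 to 35.9 CPM in mice 1, 3 and 7 and 24.7 CPM in mouse 8, and *Uty*, a related gene, 21.2 to 24.9 and 17.6 CPM. Mouse 8 was thus the lowest of the 4 mice in all 4 Y-linked genes. Counted by *Xist* over 100 CPM, there were 4 such mice among the 8 B6 and 3 among the 8 Line 4a mice, and *Ddx3y* was over 10 CPM in the other 5 Line 4a mice. The numbers of females and males given in the study's methods do not match this split of the B6 mice. Sex was not used to group mice, since the labels do not give it.

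In other genes of the 15, 1 or a few mice stood out. *Irs4*, an insulin receptor substrate, had 6.61 CPM in mouse 1 and 0.63 to 1.62 CPM in the others. *Calb2*, the calretinin gene, had 23.5 CPM in mouse 1 and 3.16 to 6.50 CPM in the others. *Arhgap36* had 5.87 CPM in mouse 1 and 0.98 to 2.27 CPM elsewhere. Mouse 1 was also the highest in *Slc17a6*, and without it the CVs of *Irs4*, *Calb2* and *Arhgap36* fell from 110%, 87.1% and 72.1% to 28.4%, 19.8% and 27.7%.

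Mouse 8 was the highest in *Zbtb20* and *Dgkh*, which vary less without it. *Dgkh*, a diacylglycerol kinase gene, had 27.9 CPM in mouse 8 and 3.67 to 13.8 CPM in the others, and its CV fell from 69.1% to 46.2% without mouse 8. The CV of *Zbtb20* fell from 71.2% to 45.4%. *Ttr* was described above. *Ccdc153* had 0.20 to 0.36 CPM in mice 2, 4 and 5 and 1.18 to 2.78 CPM in the other 5. *Ndst4*, a heparan sulfate enzyme gene, was highest in mouse 2 at 12.1 CPM and lowest in mouse 3 at 1.75 CPM, and *Igfn1* was highest in mouse 5 at 21.4 CPM and lowest in mouse 8 at 3.499 CPM.

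The variable genes of B6 mice were also variable in Line 4a mice. All 15 had a CV in Line 4a above the median of all genes there, and 85 of the 100 genes with the largest CV beyond counting in B6 were among the 10% with the largest CV in Line 4a. The CV in Line 4a was 31.2% for *Calb2*, 65.3% for *Ttr* and 70.2% for *Igfn1*. No mouse belongs to both sets, but a gene's level, and with it the counting error, is alike in both.

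At the other end, the 10 steadiest genes among those of 50 CPM or more were spread over several functions. *Usp4*, a deubiquitinating enzyme gene, had 105 to 109 CPM in all 8 mice (CV 1.20%), and *Grsf1*, which binds mitochondrial RNA, had 102 to 107 CPM (CV 1.44%). *Lphn1*, a latrophilin receptor gene, had the highest CPM of them, at 747 to 786 CPM (CV 1.45%). *Atp6ap1* of the vacuolar proton pump had 292 to 308 CPM, *Fam120a* 207 to 217 CPM and the phosphatase subunit gene *Ppp6r1* 221 to 232 CPM. *Iars2*, *Wtap*, *Trip4* and *Tor1aip2* lay between 49.1 and 76.7 CPM with CVs of 1.64% to 1.86%. For *Usp4*, *Grsf1* and these 4 the CV did not exceed counting error. With scaling by library size only, the CV was 1.78% for *Usp4*, 2.10% for *Grsf1*, 2.41% for *Fam120a*, 2.31% for *Ppp6r1* and 2.56% for *Tor1aip2*. With 1 lane file per mouse it was 1.96% for *Iars2*, 3.14% for *Wtap* and 2.72% for *Trip4*. Picking the smallest of many CVs favours low values, and in Line 4a the CVs of these 10 genes were 3.46% to 12.4%, or 1.77% to 5.59% without Line 4a mouse 1.

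**Figure D4:**
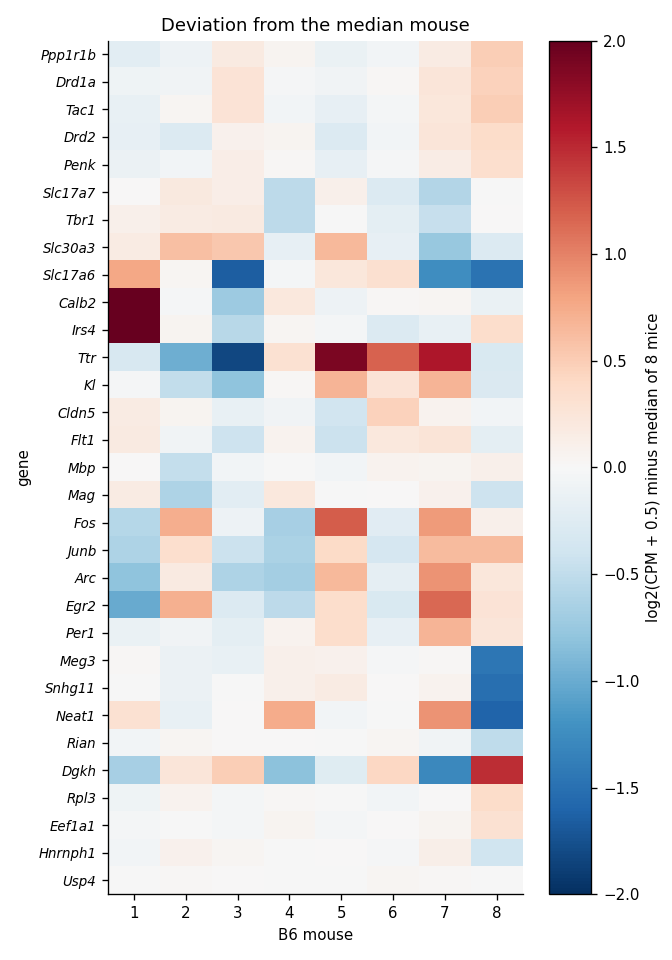
Deviation of log2(CPM + 0.5) from the median of the 8 B6 mice, for 31 genes described in the text (rows) in each mouse (columns). Colours end at 2 log2 units either way, which *Irs4* passes in mouse 1. *Meg3*, *Snhg11* and *Neat1* are low in mouse 8, activity-regulated genes such as *Fos* and *Arc* are high in mice 2, 5 and 7, and *Usp4* is flat.

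Mouse 8 was the extreme mouse for a large part of the genes. A gene was counted when the gap between its highest or lowest mouse and the nearest other mouse took a share of the whole range above the 95% critical value of Dixon's test for 8 values. This held for 1485 of 14187 genes, or 10.5%, with the lowest mouse standing apart in 755 (5.32%) and the highest in 730 (5.15%). Mouse 8 was that mouse in 1148 of the 1485 (77.3%), 633 times as the lowest and 515 times as the highest. The other mice accounted for 20 to 83 genes each. The median absolute deviation of mouse 8 from the median mouse was 0.15 log2 units, against 0.045 to 0.082 in the others, and 158 of its genes lay 1 log2 unit or more away.

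**Figure D5:**
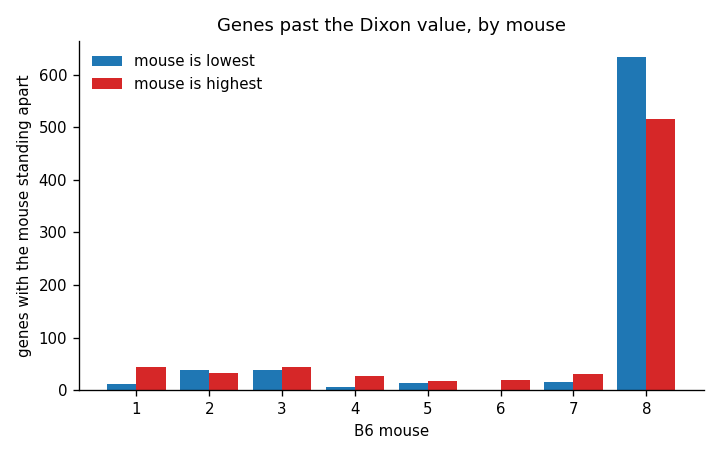
Number of genes (y) in which 1 B6 mouse (x) stood apart from the other 7 as the lowest (blue) or the highest (red). Mouse 8 accounts for 633 and 515 genes, and no other mouse exceeds 45 in either direction.

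Noncoding RNAs were low in that library. Over 401 genes annotated as long noncoding RNA, mouse 8 lay at a median of -0.23 log2 units from the median mouse, and 22 of them were lower by 1 log2 unit or more and 0 higher. Its median over 12733 protein-coding genes was 0.00039, and of these 106 were lower by 1 log2 unit or more and 7 higher. The other 7 mice lay between -0.026 and 0.032 for the noncoding genes. The median CV of these noncoding genes was 16.3%, and 12.1% without mouse 8.

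*Meg3* (GRCm38.p6 chr12:109540996-109571729), a maternally expressed imprinted RNA, had 2162 CPM in mouse 8 and 5305 to 6307 CPM in the others. *Rian* (chr12:109603945-109661716), from the same imprinted region, had 694 CPM in mouse 8 and 944 to 1016 CPM in the others. *Snhg11* had 1077 CPM in mouse 8 and 2832 to 3436 CPM in the others. All 3 RNAs were thus lowest in mouse 8, which was the lowest mouse in 3849 of the 14187 genes kept. *Neat1*, which builds nuclear paraspeckles, was also lowest there at 41.4 CPM, but it varied among the others too, from 115 to 239 CPM. *Malat1*, a nuclear RNA, had 693 CPM in mouse 8, within the 606 to 1147 CPM of the others. The 6 listed noncoding RNAs had a median CV of 25.2%, and 7.51% without mouse 8.

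Several abundant coding genes were highest in mouse 8. *Fth1* had 2336 CPM there and 1625 to 1911 CPM elsewhere, *Eef1a1* 2546 CPM and 1998 to 2127 CPM, and *Cplx2* 2484 CPM and 1781 to 2018 CPM. Without mouse 8, the CV of *Eef1a1* went from 8.60% to 2.67% and that of *Atp5a1* from 6.35% to 1.83%. The part of the library and of the animal in these values was not tested.

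*Hnrnph1* and *Rufy1*, the 2 protein-coding genes of the interval that the study mapped, are neighbours on chromosome 11. *Hnrnph1* (GRCm38.p6 chr11:50375257-50386528), which encodes an RNA-binding protein that takes part in splicing, had 238, 262, 255, 245, 250, 244, 269 and 187 CPM in mice 1 to 8. Mouse 8 was the lowest, and the CV was 10.2% with it and 4.26% without it. *Rufy1* (chr11:50389286-50431274), an endosomal adaptor gene, had 32.2 to 37.3 CPM with a CV of 4.33%, and mouse 8 lay inside that range at 35.1 CPM. On the per-length scale *Hnrnph1* had 41.7 CPM per kb and *Rufy1* 12.6 CPM per kb.

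Whether genes of a shared role followed each other across mice was examined in 13 pairs of genes, with Pearson's r and Spearman's rho of log2 CPM over the 8 mice and exact two-sided permutation tests, adjusted over the 13 pairs. Of the 13, 4 are not reported here. For Pearson's r, 6 of the other 9 pairs had an adjusted p under 0.05. *Drd2* and *Adora2a* of the indirect pathway had r = 0.97 and rho = 1.00 (exact permutation p = 2.48e-05 for r, the smallest that 8 mice allow, adjusted 0.00032, and 4.96e-05 for rho, adjusted 0.00064). *Drd1a* and *Tac1* of the direct pathway had r = 0.96 (exact permutation p = 0.0016, adjusted 0.0041) and rho = 0.90 (p = 0.0046, adjusted 0.020). *Drd1a* and *Drd2*, of different pathways, had r = 0.90 (exact permutation p = 0.0014, adjusted 0.0041) and rho = 0.86 (p = 0.011, adjusted 0.023). Markers of both pathways thus ranked the mice in a like order.

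The correlations of the pairs tested remained after the extremes were removed. Without mouse 8 these 3 pairs had r between 0.83 and 0.96. Without the 2 mice farthest from the median of the first gene, r lay between 0.87 and 0.95. Centring within each lane pair gave r between 0.89 and 0.97, and a lane pair alone holds 4 mice, too few for an r of its own.

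*Slc17a7* and *Tbr1* of cortical neurons had r = 0.97 (exact permutation p = 0.0011, adjusted 0.0041) and rho = 0.88 (p = 0.0072, adjusted 0.023), and r = 0.89 without mice 4 and 7. Across lists, *Slc17a7* and *Ppp1r1b* had r = -0.16 (exact permutation p = 0.72, adjusted 0.78) and rho = -0.29 (p = 0.50, adjusted 0.59). In the vascular list, *Cldn5* and *Flt1* had r = 0.80 (exact permutation p = 0.0094, adjusted 0.020) and rho = 0.86 (p = 0.011, adjusted 0.023), and r = 0.79 without mice 5 and 6. Its call was lost without mouse 5 (r = 0.69, adjusted exact permutation p = 0.14) and without mouse 3 (adjusted p = 0.055). Among activity-regulated genes, *Fos* and *Junb* had r = 0.83 (exact permutation p = 0.021, adjusted 0.039) and rho = 0.81 (p = 0.022, adjusted 0.040). That pair had r = 0.77 and an adjusted p of 0.053 by exact permutation once centred within lane pairs, so its call did not hold within them.

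The other pairs reported had no adjusted p under 0.05. *Fkbp5* and *Sgk1* had r = 0.38 (exact permutation p = 0.32, adjusted 0.42) and rho = 0.33 (p = 0.43, adjusted 0.59). *Malat1* and *Meg3* had r = 0.18 (exact permutation p = 0.87, adjusted 0.87) and rho = -0.48 (p = 0.24, adjusted 0.40), and r = -0.67 without mouse 8. With 8 mice, an r this far from 1 does not show that such genes are unrelated.

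The lane pair was the only batch named in the labels, and it was compared in the B6 mice by edgeR's quasi-likelihood test. Of 14187 genes, 0 had a Benjamini-Hochberg adjusted p under 5% (0%), 160 (1.13%) had an unadjusted p under 0.05, and DESeq2 called 0, with 138 at an unadjusted p under 0.05. In Line 4a mice 0 of 14228 genes (0%) passed and 404 (2.84%) had an unadjusted p under 0.05. On simulated counts with this design, 97% of genes changed by 1 log2 unit and 69% of those changed by 0.5 were called. The simulated spread depended only on a gene's level, and no simulated library stood apart as mouse 8 did. These shares thus do not show how many such changes the test would find in the real counts.

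Activity-regulated and choroid plexus genes were the lists with most of the low unadjusted p-values, and none of them passed after adjustment. *Arc* averaged 71.7 ± 25.4 CPM (SD, n = 4) in mice 1 to 4 and 132 ± 42.4 CPM in mice 5 to 8, a log2 difference of 0.88 ± 0.26 (SE, edgeR adjusted p = 1.00). *Ttr* averaged 19.6 ± 11.7 and 69.3 ± 35.4 CPM, a log2 difference of 1.81 ± 0.49 (SE, edgeR adjusted p = 1.00). In both genes the 2 sets of mice overlapped. Of 11 activity-regulated genes 4 had an unadjusted p under 0.05, and of 4 choroid plexus genes 3, beside 1.13% of all genes.

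The median log2 difference of the activity-regulated genes was 0.46, and 10 of 11 were higher in mice 5 to 8. In Line 4a mice, on the same lanes, the median was -0.04, and *Ttr* had a log2 difference of -1.04 ± 0.56 (SE, edgeR adjusted p = 0.81). Whether the lane difference itself differed between B6 and Line 4a mice was not tested. Within lane pairs the median CV of the activity-regulated genes was 31.6%, against 38.0% over all 8 mice, and that of the choroid plexus genes 42.1% against 44.4%.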

How the data were processed

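The members and gene lists were chosen with earlier results of these data known. The authors deposited raw counts per gene and lane file. The submitters' processing notes name mm10 as the build, while the study gives positions on mm9, and list FastQC 0.10.1, TopHat2 2.0.0, HTSeq 0.6.1p1 and edgeR 2.14. The counting ignored strand, so overlapping genes on opposite strands are not separable, and it left out reads with more than 1 alignment. The authors also deposited tables of their own fold changes, p-values and FDRs, which were not used.

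Lane files were summed per mouse, the 5 summary rows of each were dropped, and genes with a mean unscaled CPM of 1 or more were kept. Values are CPM scaled by TMM (edgeR 4.0.16, R 4.3.3), and log2 values used CPM + 0.5. Lane pairs were compared by the quasi-likelihood test of edgeR with Benjamini-Hochberg adjustment over all genes, and by DESeq2 1.42.0. These scripts were tested on simulated data. Gene pairs used exact permutation tests (scipy 1.17.1, Python 3.11.15). Exon lengths were matched by symbol from GENCODE on mm9, and positions and biotypes from RefSeq on GRCm38.p6, where 973 genes did not match.

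Genes named were the 15 highest by CPM, the 15 highest by CPM per kb, the 15 with the largest CV beyond counting, the 10 with the smallest CV at 50 CPM or more, the first 3 kept members and the most and least variable member of each of 24 lists (the 3 highest by CPM for the ribosomal and respiratory lists), the genes of 13 pairs, and *Hnrnph1* and *Rufy1*. List members below 1 CPM and the 4 genes nearest that limit were named after their values were seen. Some genes that this rule selects are not reported here. Depth ran from 19032826 to 33748353 gene reads per mouse, and the median counting CV was 2.61% at 30 to 100 CPM. Alternatives were other scalings, 1 lane file per mouse, other filters and leaving out each mouse, and leaving out Line 4a mouse 1 was added after the data were seen.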

Additional observations from a re-analysis of the deposited data

Results flagged for a closer look

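Among the 138 genes that the naming rule selected, 24 had 1 mouse that stood apart from the other 7 by Dixon's 95% value. For normally distributed values chance gives about 1 such flag in 20, and 10.5% of all 14187 genes had one. Some of the 138 were picked for a large or small CV, so their share of flags cannot be set against that of all genes. In 17 of the 24 the mouse was mouse 8. The values are TMM-scaled CPM.

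In mouse 8 the levels of the noncoding RNAs *Meg3* (2162 CPM), *Snhg11* (1077 CPM) and *Rian* (694 CPM) were the lowest of the 8 mice, and so was that of *Hnrnph1* (187 CPM). The same mouse was the highest in the abundant genes *Ndrg4* (2855 CPM), *Eef1a1* (2546 CPM), *Cplx2* (2484 CPM), *Cpe* (2341 CPM), *Fth1* (2336 CPM) and *Atp5a1* (923 CPM). It was also the highest in the ribosomal protein genes *Rpl3* (600.4 CPM), *Rpsa* (572 CPM) and *Rps7* (260.1 CPM), and in *Fkbp5* (52.7 CPM), *Gpr6* (44.2 CPM), *Dgkh* (27.9 CPM) and *Zbtb20* (4.54 CPM).

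In mouse 1 the highest levels were those of *Calb2* (23.5 CPM), *Irs4* (6.61 CPM) and *Arhgap36* (5.87 CPM). Mouse 2 was the lowest in the myelin genes *Mbp* (4207 CPM) and *Mobp* (555 CPM). *Ifit3*, an interferon response gene, was highest in mouse 4 at 5.32 CPM, and *Tsc22d3*, a glucocorticoid response gene, was highest in mouse 5 at 74.0 CPM.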

How the results depend on the processing

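The median CV over genes was 8.68%. It was 10.01% with a mean CPM of 0.1 or more as the filter, which adds genes of low counts, and leaving out 1 mouse at a time gave 7.31% to 8.94%, the lowest without mouse 8. The number of genes kept ran from 14169 to 14239 when 1 mouse was left out, the genes that take 50% of reads from 1138 to 1152, and the common biological coefficient of variation from 8.54% to 11.2%. The number of the 13 pairs past the threshold ran from 5 to 7. *Fos* and *Junb* had adjusted p-values of 0.050 to 0.11 without mouse 1, 2, 3, 4, 6 or 7, and *Cldn5* and *Flt1* 0.055 without mouse 3 and 0.14 without mouse 5 (exact permutation tests, n = 7). Leaving out 1 mouse turned the sign of r, with no adjusted p under 0.05, for *Malat1* and *Meg3* (-0.67 without mouse 8, up to 0.35). The cause was not tested. No paired analysis was possible because no groups were compared whose replicate numbers could pair mice, and the lane pairs hold different mice. In Line 4a the median CV of 11.4% became 5.99% without its mouse 1.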
